A study of Mus musculus with 16 samples.

Results

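The iHAC1-iPS clones fell into 2 branches, 1-B with 1-C3 and 1-A3 with 1-D6, and the genes that lay on opposite sides of these branches are described here. The 4 clones were 4 of 16 mouse samples, each measured on 1 array, so each branch held 2 samples and a sample was a clone. The branches come from the tree that the study drew over probes 4-fold apart between fibroblasts and ES cells on these same arrays. Differences between the branches were therefore part of what defined them, and they are given as values with no test. The genes were selected on their log2 levels in these same 4 samples. A gene was counted as separating the branches when both clones of one lay beyond both clones of the other.

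All 4 clones were induced pluripotent stem (iPS) cells made from C57BL/6-J mouse embryonic fibroblasts (MEFs) with iHAC1. This human artificial chromosome carries a duplicated cassette of Klf4, c-Myc, Sox2 and Oct4 cDNAs, each behind the CAG promoter and between insulators, together with an EGFP gene. It was moved from hamster donor cells into the fibroblasts by microcell-mediated chromosome transfer, and microRNA mimics were added to all of them. Each clone is 1 line grown from 1 colony, 1-A3, 1-C3 and 1-D6 being sublines, so that a difference between clones can belong to a single line. The other 12 arrays held 1 MEF sample, the B6ES line and the TT2 line of ES cells, an iPS line made with retroviruses (20D17), 4 iHAC2-iPS lines (2-B1, 2-C6, 2-E, 2-N) whose vector also held extra Oct4 and a p53 hairpin, and 4 lines freed of the iHAC (F-E4, F-N7, F-B1, F-C5). Pluripotent lines were kept on a layer of mitomycin C-treated ICR fibroblasts.

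During reprogramming, fibroblasts shut off a mesenchymal programme and gain epithelial genes such as E-cadherin, claudins and keratins before the endogenous pluripotency network becomes active. That network includes Nanog, Esrrb and Zfp42 and is held by LIF in ES cells, whereas Fgf5, Fgf8, T and Nodal targets mark cells that leave it towards the early germ layers. Zeb and Snail factors bind a short E-box in the promoters of epithelial genes and repress them.

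Markers were read first. Of 6 ES cell markers (Nanog, Esrrb, Zfp42, Dppa5a, Utf1 and Dppa3), 3 were well above background in 1-A3 and 3 in 1-D6, where Esrrb, Zfp42 and Dppa3 were not. In 1-B 5 were, all but Dppa3, and in 1-C3 all 6 were. Their summed level was 0.881 in 1-A3, 0.903 in 1-D6, 4.23 in 1-B and 12.2 in 1-C3, in units of each array's 75th percentile, against 0.290 in MEFs, 535 in B6ES and 400 in TT2. All 4 clones lay far below the ES cells on this sum, of which Dppa5a made up most in the ES lines. The median marker differed from the ES mean by -9.94 in 1-A3, -9.68 in 1-D6, -7.76 in 1-B and -5.80 in 1-C3 (log2). Nanog was nearer, at 0.59 in 1-C3 against 1.91 in B6ES. The marker levels as a set go against the label of iPS cells as cells with ES-like expression. The label is used here for how the lines were made. The 11 fibroblast markers, which the feeder cells also express, were well above background on every array, with summed levels of 415 in 1-A3, 490 in 1-D6, 258 in 1-B and 199 in 1-C3. They lay above those of B6ES (55.1) and TT2 (154) in all 4 clones, and the sum was 341 in MEFs. The other iPS lines had it too, at 284 in 20D17, 99.2 (2-N) to 302 (2-B1) in iHAC2-iPS and 163 (F-E4) to 313 (F-C5) in iHAC-free lines. Clones 1-B and 1-C3 lay within the last 2 ranges, and 1-A3 and 1-D6 lay above both. In these bulk samples fewer cells of a type and less RNA per cell cannot be told apart, and neither can feeder fibroblasts and a clone's own fibroblast transcripts.

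On the 16 arrays between 54.2% and 65.8% of the spots exceeded background clearly, and saturation occurred on no array. Of 41174 probes, 27325 had signal well above background in 1 or more of the 4 clones and were compared. The arrays of 1-A3, 1-B, 1-C3 and MEFs shared a slide, while 1-D6 shared another with 20D17, B6ES and TT2. Levels are log2 signals minus the array's own 75th percentile, and a difference of 1 is therefore a 2-fold change. Apart from the marker sums, no level was set against that of another probe.

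Both clones 1-A3 and 1-D6 lay above both others for 6434 probes (23.5%), and 1-B and 1-C3 lay above for 6362 (23.3%), so the numbers were close when no size was asked. They were not when the nearest clones of the branches had to be at least 2-fold apart. Then 259 probes (0.948%) were higher in 1-A3 and 1-D6 and 756 (2.77%) were higher in 1-B and 1-C3. With 1 probe for each of 14468 genes, 3434 (23.7%) and 3687 (25.5%) did not overlap in these directions, and 159 (1.1%) and 527 (3.64%) were at least 2-fold apart. The median difference over all compared probes was 0.01, which the scaling of each array largely sets.

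When each clone was left out in turn, the surplus on the side of 1-B and 1-C3 was absent only without 1-D6. As 1-D6 was the only one of the 4 clones on its slide, clone and slide cannot be told apart, and the cause was not tested. Without 1-D6, which also leaves only arrays of 1 slide, 1278 probes were higher in 1-A3 and 1181 in 1-B and 1-C3 at the same gap. Without 1-A3 the counts were 680 and 1217, without 1-B 677 and 1122, and without 1-C3 882 and 1477. Leaving out a clone eases the rule, so these counts could only rise. With normexp background correction, which compresses dim signals, the counts over all 4 clones were 56 and 213.

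At the limit itself, Nsg1 was the gene just inside on the side of 1-A3 and 1-D6, with levels of 1.62 and 1.75 against 0.50 in 1-B and 0.62 in 1-C3. Ankrd44 was just outside, with -1.18 and -1.96 against -2.96 and -3.07. On the other side Ifitm1 was just inside (-1.77 in 1-A3, -1.73 in 1-D6, -0.73 in 1-B and 1.23 in 1-C3) and Jph1 just outside (1.08, 1.02, 2.83 and 2.08). Genes on either side of the limit thus differed little.

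The probes higher in 1-B and 1-C3 were largely those that ES cells hold above fibroblasts. Of the 756, 397 (52.5%) were at least 4-fold higher in ES cells than in MEFs and 37 were 4-fold higher in MEFs. Of the 259 higher in 1-A3 and 1-D6, 138 (53.3%) were 4-fold higher in MEFs and 5 in ES cells. Among all compared probes these shares were 6.67% for ES cells and 7.86% for MEFs. The tree was built on probes of this kind, so the shares partly restate it. Outside that selection, 322 probes (1.38% of those outside) were higher in 1-B and 1-C3 and 116 (0.497%) in 1-A3 and 1-D6, compared with 10.9% and 3.6% of the probes inside.

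**Figure D1:**
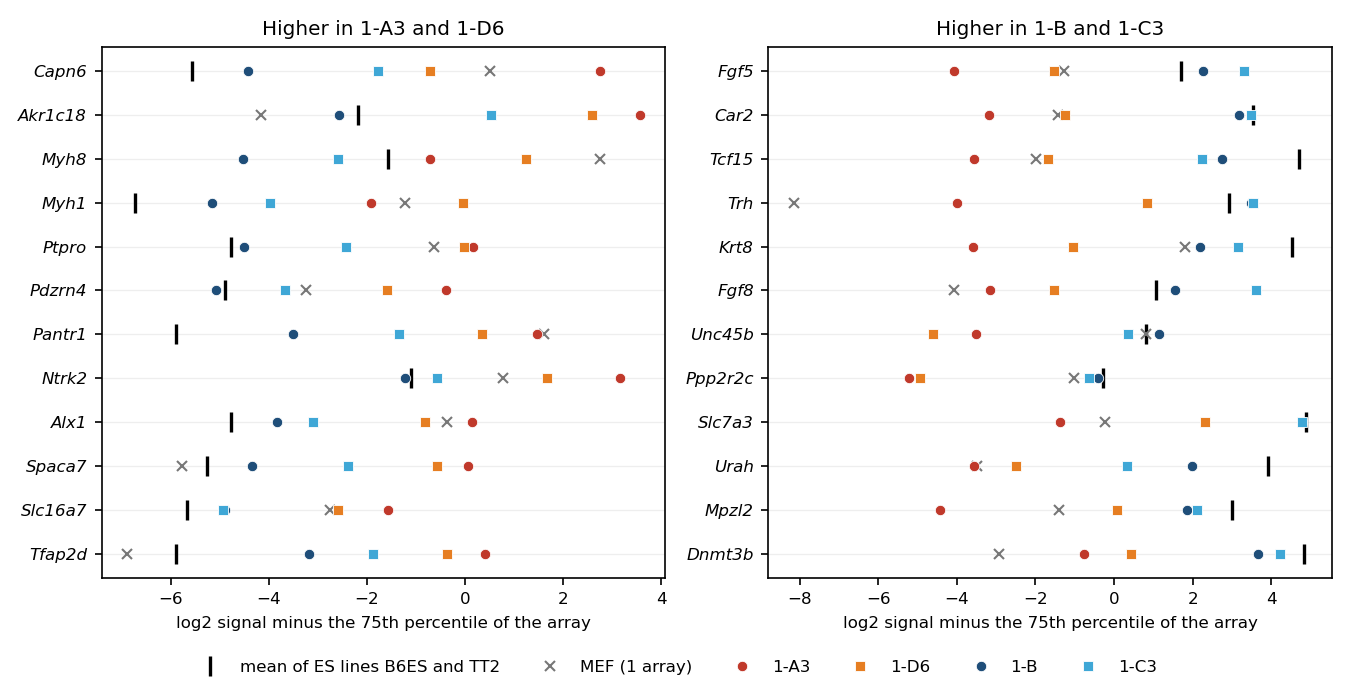
Levels of the 12 genes with the widest gap between branch means in each direction, among genes well above background on all 4 clones. The x axis is the log2 signal minus the array's 75th percentile, each coloured symbol is 1 clone, the bar is the mean of 2 ES lines and the cross is MEFs. For every gene on the left both 1-A3 and 1-D6 lie to the right of 1-B and 1-C3, and for every gene on the right they lie to the left.

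The widest gaps among genes measured on all 4 clones were higher in 1-B and 1-C3, and Fgf5 and Car2 led them. Fgf5 (mm9 chr5:98705980-98706039), a growth factor of the post-implantation epiblast, was at -4.07 in 1-A3, -1.52 in 1-D6, 2.27 in 1-B and 3.31 in 1-C3. The branch means, -2.79 ± 1.80 and 2.79 ± 0.73 (SD, n = 2), were 47.9-fold apart, and the nearest clones 13.9-fold. Within the branch of 1-A3 and 1-D6 the clones themselves were far apart, though clear of the others. Car2, a carbonic anhydrase, was at -3.17, -1.25, 3.18 and 3.48 in the same order of clones, 46.4-fold between the means. Fgf8, a growth factor of the primitive streak, was at -3.14, -1.52, 1.54 and 3.62, 30.2-fold. Tcf15, a bHLH factor of somites and of cells leaving naive pluripotency, was at -3.55 and -1.69 against 2.76 and 2.25, 34.8-fold. Thus 1-A3 was the lowest clone for each of these 4 genes.

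Some of the leading genes split evenly and some unevenly. Ppp2r2c, a regulatory subunit of protein phosphatase 2A, was at -5.22 in 1-A3, -4.94 in 1-D6, -0.40 in 1-B and -0.63 in 1-C3, 23.7-fold between means. Unc45b, a myosin chaperone, was at -3.50, -4.61, 1.14 and 0.35, 28.0-fold. For both genes 1-A3 and 1-D6 were below all 14 other arrays, MEFs included. Trh, thyrotropin-releasing hormone, was at -4.0 in 1-A3 but 0.85 in 1-D6, against 3.48 in 1-B and 3.54 in 1-C3. The amino acid transporter Slc7a3 was at -1.37, 2.33, 4.78 and 4.78, and the adhesion protein Mpzl2 at -4.43, 0.07, 1.86 and 2.12. For these 3 genes 1-D6 lay nearer to the other branch than to 1-A3. Dnmt3b, a de novo DNA methyltransferase, was at -0.76, 0.43, 3.65 and 4.22, and its partner Dnmt3a at -0.62, -1.09, 0.58 and 0.53.

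For other genes 1-A3 and 1-D6 gave no signal well above background, and only a lower bound of the fold can be given, the bright mean over the lowest signal well above background on the dim arrays or the dim probe's own where that was higher. Trim6, a ubiquitin ligase, was at -2.0 in 1-B and 0.20 in 1-C3, at least 25.1-fold above the other branch, and 2 of its 3 other detected probes separated the branches the same way. The membrane protease Mmp25 was at least 22.5-fold higher, the mesoderm factor T at least 11.3-fold, the kinase Dapk2 at least 11-fold, and the enzymes Qprt and Padi3 each at least 10.8-fold. T also differed within its bright branch, at -3.77 in 1-B and -0.33 in 1-C3.

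Epithelial genes lay on the same side. Of 21 epithelial genes chosen for their function, 20 were compared, 17 (85%) did not overlap with the higher values in 1-B and 1-C3, and 1 (Dsp, a desmosome protein) went the other way. Over all genes 25.5% and 23.7% did not overlap in these directions. Of the 20, 13 were at least 2-fold apart, all higher in 1-B and 1-C3, where 3.64% of all genes were, and the median difference was -2.54 (1-A3 and 1-D6 minus 1-B and 1-C3), or -2.45 with unmeasured clones at their bound. Promoters of 4 of these genes, chosen because they code for a polarity protein, an adhesion molecule, a tight junction protein and a keratin with wide gaps, are shown as the 250 bases before the RefSeq start on GRCm38.p6. Capitals mark the E-box CAGGTG or its reverse complement CACCTG, the letters searched on both strands. Crb3 lies at chr17:57061951-57062200 (plus strand), Epcam at chr17:87635729-87635978 (plus), Cldn6 at chr17:23679115-23679364 (plus) and Krt8 at chr15:102004343-102004592 (minus), and each is read 5′ to 3′ on the strand of its gene.
Crb3: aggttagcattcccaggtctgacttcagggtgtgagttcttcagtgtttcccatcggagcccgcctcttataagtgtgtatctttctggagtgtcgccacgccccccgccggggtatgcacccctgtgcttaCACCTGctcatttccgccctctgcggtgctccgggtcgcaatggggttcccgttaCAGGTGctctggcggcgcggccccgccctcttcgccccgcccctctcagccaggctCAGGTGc
Epcam: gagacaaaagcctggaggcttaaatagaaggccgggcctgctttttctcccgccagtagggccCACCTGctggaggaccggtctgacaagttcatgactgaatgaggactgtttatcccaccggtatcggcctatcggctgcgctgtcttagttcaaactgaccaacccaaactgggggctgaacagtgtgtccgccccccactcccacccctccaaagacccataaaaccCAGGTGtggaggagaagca
Cldn6: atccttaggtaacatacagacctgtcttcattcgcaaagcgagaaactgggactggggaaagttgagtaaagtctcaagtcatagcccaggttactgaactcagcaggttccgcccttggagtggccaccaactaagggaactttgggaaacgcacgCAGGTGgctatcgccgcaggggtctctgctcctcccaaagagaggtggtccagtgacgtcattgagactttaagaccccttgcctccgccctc
Krt8: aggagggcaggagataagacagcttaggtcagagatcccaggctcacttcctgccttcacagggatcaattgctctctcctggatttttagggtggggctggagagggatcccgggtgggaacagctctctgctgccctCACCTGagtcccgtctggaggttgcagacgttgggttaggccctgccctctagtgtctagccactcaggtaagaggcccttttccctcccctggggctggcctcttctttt

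The E-box was counted after the values had been seen, so the counts are a description of letters and not of binding. It occurred 3 times before Crb3, 2 times before Epcam, and 1 time each before Cldn6 and Krt8. Of the 13 epithelial genes at least 2-fold higher in 1-B and 1-C3, 10 had a promoter in the RefSeq table and 9 of these held the E-box, Spint1 being the exception. Of the other epithelial genes, 1 of 4 held it (Rab25). Among all 32851 promoters of the table, 17.2% did. Counted per gene, it was held by 19.1% of the compared genes with a promoter, 33.6% (129 of 384) of those at least 2-fold higher in 1-B and 1-C3, and 17.9% (21 of 117) of those at least 2-fold higher in 1-A3 and 1-D6.

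Crb3, a polarity protein of the apical membrane, was at -1.98 in 1-B and -2.53 in 1-C3 and not well above background in 1-A3 or 1-D6, a difference of at least 9.79-fold. Epcam, an epithelial adhesion molecule, was at -2.53 in 1-A3, -1.70 in 1-D6, 1.32 in 1-B and 1.15 in 1-C3, 10.2-fold between the means, while it was at 3.39 in B6ES, 3.25 in TT2 and -4.20 in MEFs. Both branches thus lay between fibroblasts and ES cells for Epcam, and each pair of clones lay close together. Krt8 (mm9 chr15:101827214-101827273), a keratin of simple epithelia, was at -3.59, -1.04, 2.19 and 3.15, 31.6-fold, and its partner Krt18 at -1.17, 0.38, 2.88 and 3.56. Both keratins were lower in 1-A3 and 1-D6 than on any of the 14 other arrays, with MEFs at 1.80 for Krt8. Cdh1 (mm9 chr8:109193812-109193871), which codes for E-cadherin, was not well above background in 1-A3, was at -2.25 in 1-D6, and was at 1.39 in 1-B and 1.56 in 1-C3, so 1-D6 and its nearest clone of the other branch were 12.4-fold apart. The iHAC2-iPS lines were at 3.64 to 4.49 and the iHAC-free lines at 3.94 to 4.23 for Cdh1. All 4 iHAC1-iPS clones were below these ranges.

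**Figure D2:**
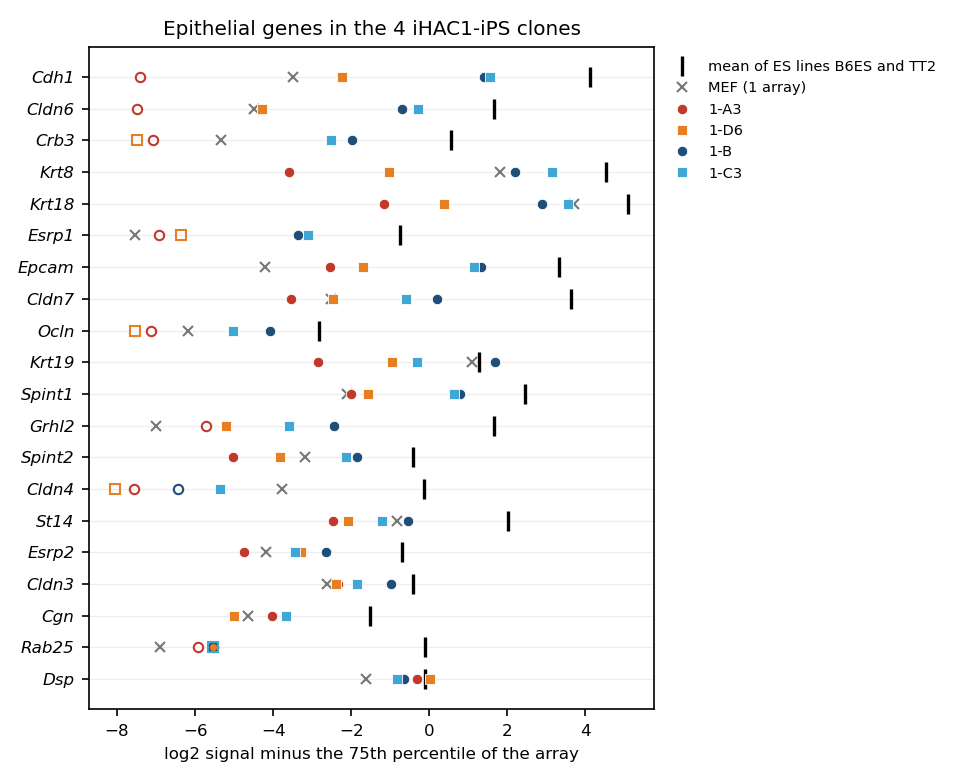
Levels of the 20 compared epithelial genes in the 4 clones, as log2 signal minus the array's 75th percentile on the x axis. Filled symbols are values well above background, open symbols are not, the bar is the mean of 2 ES lines and the cross is MEFs. From Cdh1 at the top to Dsp at the bottom the gap between the red and orange symbols (1-A3 and 1-D6) and the blue ones (1-B and 1-C3) narrows.

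The tight junction genes behaved alike in direction. Cldn6 was at -0.70 in 1-B and -0.30 in 1-C3, was measured at -4.29 in 1-D6 and was not well above background in 1-A3. Cldn7 was at -3.54, -2.47, 0.21 and -0.61, and Ocln (occludin) was at least 2.00-fold higher in 1-B and 1-C3. Cldn4 was well above background only in 1-C3. The splicing factor Esrp1, which sets epithelial isoforms, was at least 4.97-fold higher, and the epithelial transcription factor Grhl2 was at -5.21 in 1-D6, -2.45 in 1-B and -3.59 in 1-C3. The protease inhibitor Spint1 was at -2.0, -1.56, 0.79 and 0.63, and Spint2 was at -5.03, -3.83, -1.86 and -2.14. Relative to the ES mean, the median epithelial gene was at -5.83 in 1-A3, -4.87 in 1-D6, -2.29 in 1-B and -2.19 in 1-C3. Neither branch therefore reached the ES level.

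Of the factors that repress these genes, Zeb2 was at 1.61 in 1-A3, 1.54 in 1-D6, -0.52 in 1-B and 0.80 in 1-C3, without overlap. Its relative Zeb1 was at 1.49, 1.51, 1.77 and 1.26, Snai1 at -1.30, -0.60, -1.31 and -1.09, and Snai2 at 2.19, 3.06, 2.38 and 2.03. For these 3 the branches overlapped.

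The genes of the 4 reprogramming factors that iHAC1 carries separated the branches by small gaps. Of these, 3 (75%, against 23.7% of all genes) lay higher in 1-A3 and 1-D6 without overlap, none of them at least 2-fold. Pou5f1, which codes for Oct4, was at 6.65 in 1-A3, 6.67 in 1-D6, 6.57 in 1-B and 6.32 in 1-C3, above B6ES (3.56) and TT2 (4.00) in every clone. Sox2 was at 1.03, 0.62, 1.03 and 1.56, Klf4 at 2.15, 2.90, 2.09 and 2.13, and both were below the ES lines. Sox2 overlapped between the branches. Klf4 did not, but only 1-D6 stood apart from the other clones. One Myc probe was at 6.58, 6.53, 5.80 and 5.84 and a second at 4.6, 4.46, 3.58 and 3.73, both higher in 1-A3 and 1-D6 by under 2-fold between the nearest clones, but the third was at -1.34, 0.22, -0.63 and -0.39 and overlapped. In MEFs and ES cells the first Myc probe was at 1.33 and 1.48. Whether each probe reads the vector cDNA, the endogenous transcript or both was not tested.

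Of 10 pluripotency markers for which the study had primers, 9 were compared, 5 (55.6%) lay higher in 1-B and 1-C3 without overlap, 4 (44.4%) of them at least 2-fold, and none lay the other way. Over all genes 25.5% were higher in 1-B and 1-C3 without overlap and 23.7% in 1-A3 and 1-D6. At least 2-fold apart in these directions were 3.64% and 1.1%. Nanog was at -1.07 in 1-A3, -1.81 in 1-D6, -0.17 in 1-B and 0.59 in 1-C3, its nearest clones 1.87-fold apart. Both ES lines were above all 4, at 1.91 and 2.43. Utf1, a chromatin factor of ES cells, was at -3.95, -2.66, 0.94 and 0.22. Dppa5a was at -1.72, -1.25, 0.39 and 3.22 against 8.96 in B6ES and 8.36 in TT2, and a second probe separated the branches in the same direction. Esrrb was at least 3.32-fold and Zfp42 at least 2.96-fold higher in 1-B and 1-C3, although the second Zfp42 probe overlapped. Dnmt3l, Tcl1 and Gbx2 overlapped, Dppa3 was well above background only in 1-C3, and Khdc3 was not in any clone. Within the brighter branch 1-C3 was above 1-B for Nanog, Dppa5a, Esrrb and Zfp42. The median marker lay below the ES mean by a log2 difference of -9.13 in 1-A3, -8.18 in 1-D6, -7.35 in 1-B and -5.32 in 1-C3.

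Among 19 other ES cell genes, 15 (78.9%) were higher in 1-B and 1-C3 and 1 in 1-A3 and 1-D6, with a median difference of -1.18. At least 2-fold apart were 6 (31.6%) and 0. Over all genes the shares were 25.5% and 23.7% without overlap, and 3.64% and 1.1% at least 2-fold apart. Lin28a, an RNA-binding protein that blocks let-7 maturation, was not well above background in 1-A3, at -3.01 in 1-D6, 1.18 in 1-B and 1.98 in 1-C3, the nearest clones 18.2-fold apart. Its relative Lin28b was at -0.51, 0.67, 1.97 and 1.77. Tdgf1, the Nodal co-receptor Cripto, was at 0.28, 0.65, 2.63 and 2.77, and 1-B and 1-C3 lay near the ES lines at 2.91 and 2.84. Mycn was at -2.48, -1.35, 0.95 and 1.43 and stayed under the ES lines at 4.51 and 4.40. The nuclear receptor Nr5a2 was at least 2.13-fold higher in 1-B and 1-C3, and Dppa4, not well above background in 1-A3, was 3.21-fold lower in 1-D6 than in its nearest clone 1-B. Klf2, at 7.34, 7.57, 7.40 and 7.33, overlapped, as did Tet2 and Tbx3.

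Genes of the Nodal pathway, which patterns the early embryo, gave the widest gaps among signalling genes. Of 10 compared, 7 (70%) were higher in 1-B and 1-C3 and 2 (20%) in 1-A3 and 1-D6, with 4 (40%) and 0 at least 2-fold apart and a median of -0.65. Over all genes the shares were 25.5% and 23.7%, with 3.64% and 1.1% at least 2-fold apart. The ligand Nodal was at -3.05 in 1-A3, -3.22 in 1-D6, -0.19 in 1-B and 1.28 in 1-C3, 12.8-fold between the means. Its inhibitors and targets Lefty1 and Lefty2 were higher as well. Lefty1 was at 0.68, 2.13, 5.10 and 4.51, 10.6-fold, and 1-B and 1-C3 straddled the ES lines (4.98 and 4.89). Lefty2 was at 2.56 in 1-B and 2.42 in 1-C3, at -1.34 in 1-D6 and not well above background in 1-A3. The receptors Acvr1b and Acvr2b were higher in 1-B and 1-C3 by under 2-fold, and the signal transducers Smad2 and Smad3 were slightly higher in 1-A3 and 1-D6.

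In the FGF pathway 9 of 14 genes (64.3%, against 25.5% of all genes) were higher in 1-B and 1-C3 and 1 in 1-A3 and 1-D6. At least 2-fold apart were 3 (21.4%, against 3.64% of all genes) and 0, and the median was -1.03. The feedback phosphatase Dusp6 was at 2.26, 3.55, 4.79 and 4.89, and with Fgf5 and Fgf8 it made up the 3. The targets Spry2, Etv4 and Etv5 did not overlap either, whereas receptor Fgfr2 was the gene higher in 1-A3 and 1-D6, at -1.60 and -2.49 against -4.34 and -3.22. Receptors Fgfr1 and Fgfr3 overlapped. Of 21 Wnt pathway genes, 6 (28.6%) were higher in 1-B and 1-C3 and 4 (19%) in 1-A3 and 1-D6, near the 25.5% and 23.7% of all genes, and the 4 at least 2-fold apart were all higher in 1-B and 1-C3. They were the ligands Wnt3 (-4.03, -4.51, -2.21 and 0.17) and Wnt5b (-2.56, -2.01, 0.45 and -0.26) and the nuclear factors Sp5 (-3.74, -1.92, -0.05 and 2.40) and Tcf7 (-1.65, -1.66, -0.60 and -0.43). For Wnt5b 1-B and 1-C3 lay above all 14 other arrays. For Wnt3 and Sp5 the 2 clones of the brighter branch were themselves over 2-fold apart, with 1-C3 the higher.

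Germ layer genes did not form a single group. Of 11 mesoderm genes compared, 6 (54.5%, against 25.5% of all genes) were higher in 1-B and 1-C3 and 2 (18.2%, against 23.7%) in 1-A3 and 1-D6. The median was -1.16, or -0.82 at the bounds. T, Eomes, Mesp1 and Tal1 (36.4%, against 3.64% of all genes) were at least 2-fold apart. Eomes was at -2.0 in 1-B and 0.10 in 1-C3, with 1-D6 at -3.81, while Mesp1 was well above background in 1-C3 alone. Tal1 was at least 2.99-fold higher in 1-B and 1-C3. Of 16 endoderm genes 2 were higher in 1-B and 1-C3, both at least 2-fold, and 4 the other way, shares (12.5% and 25%) no higher than or near those of all genes (25.5% and 23.7%). Foxa2, a pioneer factor of endoderm and axial mesoderm, was at -4.55 in 1-D6, -1.22 in 1-B and 2.86 in 1-C3, and the Nodal antagonist Cer1 was at least 9.74-fold higher in 1-B and 1-C3. Foxa2 differed more between 1-B and 1-C3 than between 1-B and 1-D6.

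Some genes of other functions lay on the same side. Of 24 interferon response and antigen presentation genes, 11 (45.8%) were higher in 1-B and 1-C3 and 4 (16.7%) in 1-A3 and 1-D6, with 6 (25%) and 0 at least 2-fold apart and a median of -0.53. Over all genes the shares were 25.5% and 23.7%, with 3.64% and 1.1% at least 2-fold apart. Irf1, a transcription factor induced by interferon, was at 1.73, 1.68, 3.4 and 3.78, and the GTPase Gbp2 was at -2.51, -2.62, -0.19 and 0.15, so the clones of each branch lay close together. The proteasome subunits Psmb8 (-1.90, -2.11, -0.73 and 0.06) and Psmb9 (-2.65, -3.27, -1.58 and -1.31) lay on the same side, but Ifit2 and Isg15 overlapped. Phlda2, an imprinted gene that limits placental growth, was at -0.99, -0.09, 3.02 and 3.48, 13.8-fold, and was the single gene of 20 other imprinted genes with a 2-fold gap. The X-linked homeobox gene Rhox5 was at -2.81, -1.62, 1.67 and 0.63, and the germline genes Sycp3 and Tdrd1 were well above background in 1-C3 alone. The glucose transporter Slc2a3 was at 4.25, 4.45, 5.69 and 5.78.

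On the side of 1-A3 and 1-D6 the gaps were narrower. Akr1c18, a hydroxysteroid dehydrogenase, was at 3.56 in 1-A3, 2.58 in 1-D6, -2.57 in 1-B and 0.53 in 1-C3, 17-fold between the means and 4.15-fold between the nearest clones. The highest of the 12 arrays of other lines was TT2 at -2.16. Ntrk2, the receptor of the neurotrophin BDNF, was at 3.16, 1.67, -1.23 and -0.57, 9.96-fold, and both of its other detected probes separated the branches the same way. Both genes were higher in 1-A3 and 1-D6 than on all 14 other arrays. Tfap2d, an AP-2 transcription factor, was at 0.41, -0.37, -3.18 and -1.87 and also above all others. The receptor phosphatase Ptpro was at 0.16, -0.03, -4.51 and -2.43, 11.6-fold. Capn6, a calpain without protease activity, had the widest gap between means (17.4-fold) but was at 2.75 in 1-A3 and -0.71 in 1-D6 against -4.43 and -1.77, only 2.09-fold between the nearest clones. The skeletal myosins Myh8 (-0.71, 1.24, -4.54 and -2.59) and Myh1 (-1.92, -0.04, -5.16 and -3.97) and the craniofacial factor Alx1 (0.15, -0.81, -3.83 and -3.11) were further leaders. The means of Pdzrn4 were 10.5-fold, those of the noncoding RNA Pantr1 10.1-fold, those of Spaca7 8.69-fold and those of the monocarboxylate transporter Slc16a7 7.11-fold apart. Where 1-B and 1-C3 gave no signal well above background, the neural progenitor factor Dbx1 was at least 11.4-fold, Brinp3 at least 5.14-fold, the integrin Itgb8 at least 4.43-fold and the erythrocyte membrane protein Epb42 at least 4.03-fold higher.

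Fibroblast and contractile genes were higher in 1-A3 and 1-D6 in many small steps. Of 27 fibroblast and mesenchymal genes, 16 (59.3%) were higher in 1-A3 and 1-D6 and 1 in 1-B and 1-C3, with 2 and 0 at least 2-fold apart and a median of 0.56. Over all genes 23.7% and 25.5% did not overlap in these directions and 1.1% and 3.64% were at least 2-fold apart, and the same shares stand beside the contractile, protease, neural and Hox counts that follow. Postn, the matrix protein periostin, was at 4.34, 4.37, 2.67 and 2.82, and Col5a2, a collagen chain, at 2.64, 2.66, 1.5 and 1.19, with the clones of each branch close together. Postn in 1-A3 and 1-D6 was above every other array, MEFs (4.15) included. Of 14 contractile genes 11 (78.6%) were higher in 1-A3 and 1-D6, and the smooth muscle actin Acta2 (6.62, 7.44, 5.47 and 5.53) and the cardiac actin Actc1 (3.55, 4.19, 2.35 and 2.36) were at least 2-fold apart. Of 14 matrix proteases and inhibitors 8 (57.1%) were higher in 1-A3 and 1-D6 and 2 the other way, with a median of 0.40. The summed fibroblast markers, 415 and 490 against 258 and 199, are all members of the fibroblast list, so the sum partly restates its count. Among these markers Lum was the gene higher in 1-B and 1-C3. What part fibroblast transcripts had in the other lists was not tested.

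Neural and positional genes lay on the same side. Of 16 neural genes 8 (50%) were higher in 1-A3 and 1-D6 and 2 in 1-B and 1-C3, with a median of 0.68. Neurog2 was at -1.18 and -3.69 against -4.99 in 1-C3, and it was not well above background in 1-B. Of 26 Hox genes compared, which record the position of a cell along the body axis, 16 (61.5%) were higher in 1-A3 and 1-D6 and 1 in 1-B and 1-C3, none 2-fold, with a median of 0.52.

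**Figure D3:**
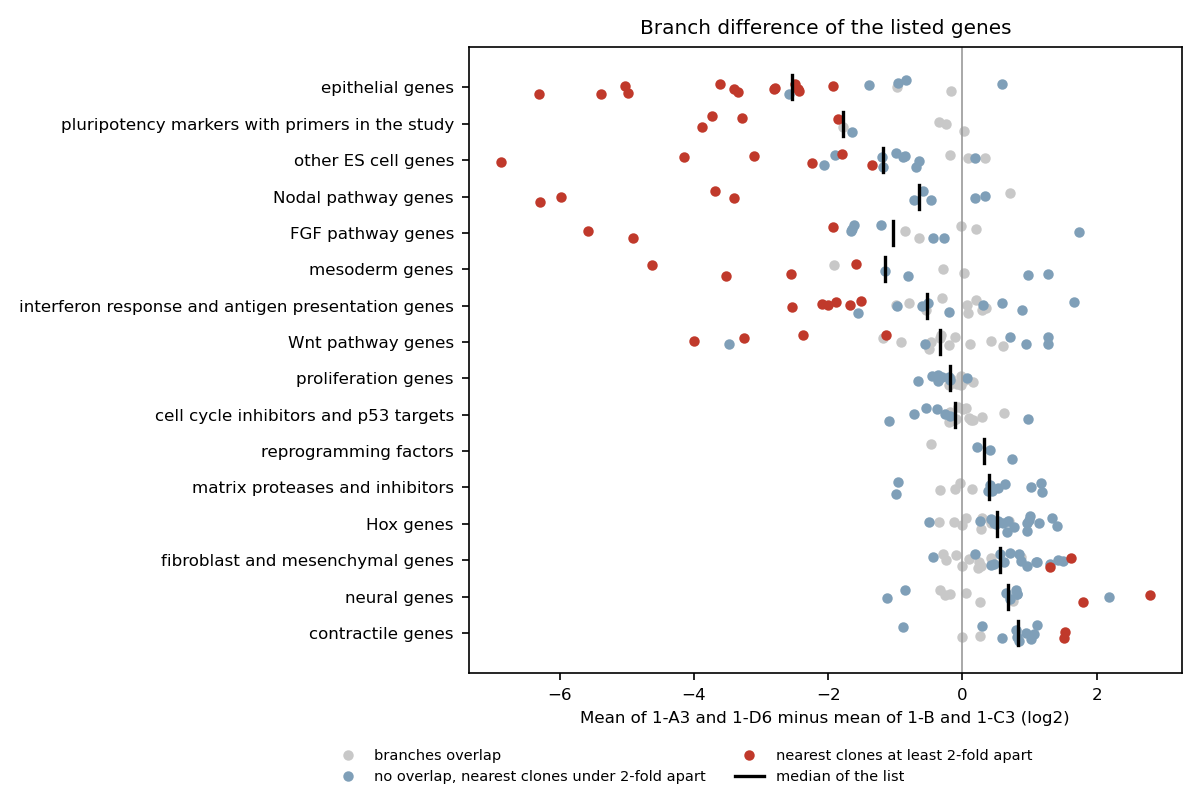
Difference between branch means (1-A3 and 1-D6 minus 1-B and 1-C3, log2, x axis) for each compared gene of 16 lists. Each dot is a gene, grey where the branches overlap, blue where they do not and red where the nearest clones are at least 2-fold apart, and the black bar is the median of the list. Red dots lie almost all left of 0, while the lists at the bottom (Hox, fibroblast, neural and contractile genes) have medians between 0.52 and 0.83.

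In the other lists at most a few genes were 2-fold apart. Of 15 proliferation genes 7 were higher in 1-B and 1-C3 and 1 the other way with a median of -0.18, and of 20 cell cycle inhibitors and p53 targets 6 and 1 with a median of -0.12, none 2-fold. Of 9 genes of the LIF and Stat3 pathway 5 were higher in 1-B and 1-C3 and 3 the other way, and of these only Socs2 was 2-fold apart (0.15, 0.78, 1.90 and 1.88). Of 21 glycolysis and hypoxia genes 11 and 3, of 15 BMP pathway genes 4 and 6 (the ligand Bmp7 alone 2-fold apart, at -3.47 in 1-D6, -1.59 in 1-B and -0.33 in 1-C3), of 14 integrins and laminins 4 and 2, of 10 trophectoderm genes 4 and 1, of 10 blood cell genes 3 and 5, and of 20 other imprinted genes 6 and 9 were higher in 1-B and 1-C3 and in 1-A3 and 1-D6. Of 5 DNA methylation enzymes 2 were higher in 1-B and 1-C3, both 2-fold, and 1 the other way. Of 5 genes of the Dlk1-Dio3 imprinted cluster 1 and 2 did not overlap, of 9 germline genes 4 and 1 (3 of the 4 at least 2-fold apart), and the 1 compared two-cell-stage gene overlapped. Among all genes the shares without overlap were 25.5% and 23.7%, and those at least 2-fold apart 3.64% and 1.1%. At least 2-fold higher in 1-B and 1-C3 were 40% of the DNA methylation enzymes and 33.3% of the germline genes, above that share. The lists of 10 genes or fewer give coarse shares.

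Sex-linked transcripts cut across the branches. Xist, the RNA that coats the inactive X chromosome, was at 2.56 in 1-B and 1.84 in 1-D6 against 0.27 in 1-A3 and 0.25 in 1-C3, and 3 further probes ordered the clones into the same pairs. The Y-linked Ddx3y was at -2.60 in 1-A3, -2.0 in 1-D6, -2.41 in 1-B and -3.24 in 1-C3, overlapping and close to the ES lines, while MEFs were at 1.18. Eif2s3y overlapped as well, and Uty and Kdm5d were not well above background in any of the 4 clones. By chromosome the median difference between branches ran from -0.05 on chromosome X to 0.04 on chromosome 5, and the share of probes at least 2-fold higher in 1-B and 1-C3 from 1.35% on chromosome 13 to 4.66% on chromosome X.

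Clones of one branch also differed from each other. Among the 756 probes 1-D6 was above 1-A3 for 460 and below for 296, while 1-C3 and 1-B were nearly even, at 373 and 383. Among the 259 probes 1-A3 was above 1-D6 for 161 and 1-C3 above 1-B for 167. The median absolute difference within a branch was 0.45 and 0.47 for the 756, and 0.39 and 0.38 for the 259, against 0.26 and 0.23 over all compared probes. Clone 1-D6 was thus more often on the inner side of its branch for both sets of probes, and 1-C3 only for the 259.

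**Figure D4:**
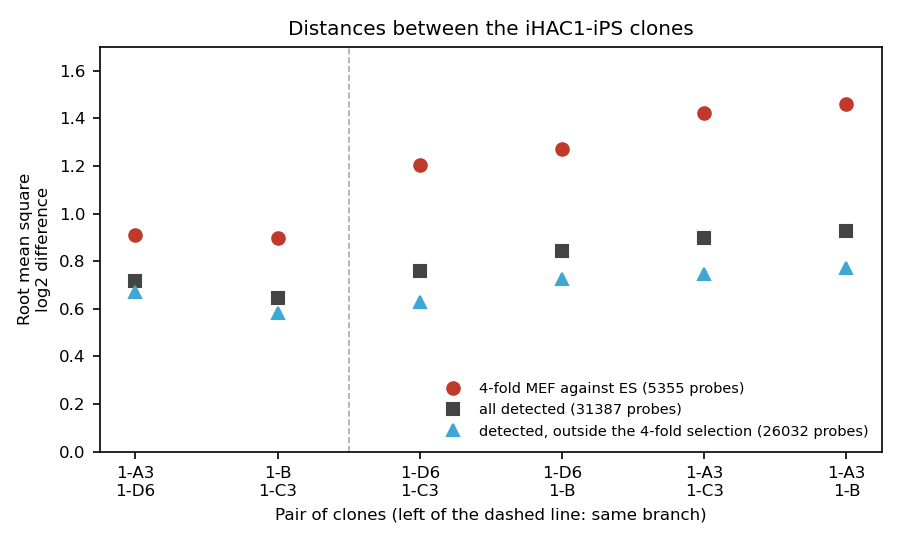
Root mean square log2 difference (y axis) of each pair of clones over 3 sets of probes, with pairs of the same branch left of the dashed line. Over 4-fold probes the same-branch pairs lie at 0.909 and 0.896 and all others at 1.20 or more. Over the probes outside that selection the pair 1-D6 and 1-C3 (0.629) lies below the pair 1-A3 and 1-D6 (0.671).

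The distance between whole profiles gave the same order for the probes on which the tree was built. Over 5355 probes 4-fold apart between MEFs and ES cells, the root mean square log2 difference was 0.909 between 1-A3 and 1-D6 and 0.896 between 1-B and 1-C3. Across the branches it was 1.20 between 1-D6 and 1-C3, 1.27 between 1-D6 and 1-B, 1.42 between 1-A3 and 1-C3 and 1.46 between 1-A3 and 1-B. The mean across branches over the mean within them was 1.48. Over all 31387 detected probes the same pairs were nearest, but the ratio was 1.26. Over the 26032 detected probes outside the selection 1-D6 was closer to 1-C3 (0.629) than to 1-A3 (0.671). To the mean of the ES lines the distances over the 4-fold probes were 2.56 for 1-A3, 2.46 for 1-D6, 1.95 for 1-B and 1.85 for 1-C3, and to MEFs they were 2.44, 2.49, 2.73 and 2.82. Only 1-A3 and 1-D6 were about as far from ES cells as from MEFs. A centroid-linkage tree rebuilt from these values joined 1-B with 1-C3 and 1-A3 with 1-D6.

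**Figure D5:**
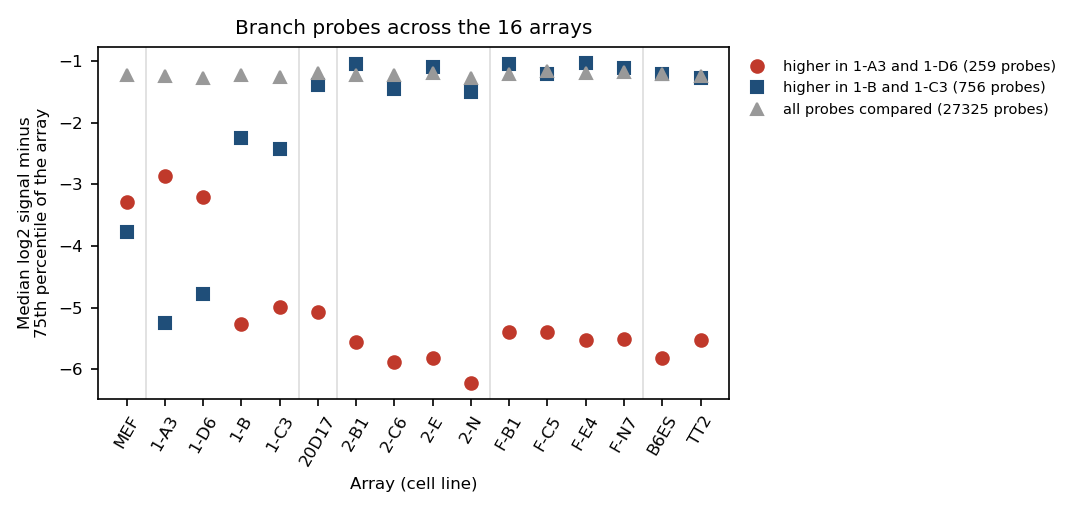
Median level (y axis, log2 signal minus the array's 75th percentile) on each of the 16 arrays of the 259 probes higher in 1-A3 and 1-D6 (red), the 756 higher in 1-B and 1-C3 (blue) and all 27325 compared probes (grey). In the ES, 20D17, iHAC2-iPS and iHAC-free lines the blue medians lie between -1.51 and -1.03, above 1-B (-2.26) and 1-C3 (-2.43), and 1-A3 and 1-D6 are lowest at -5.25 and -4.78.

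The other lines lay mostly on the side of 1-B and 1-C3. Their values did not set the gap between the clones, but those of MEFs and ES cells chose the probes of the tree. That selection held 57.4% of the 756 probes and 55.2% of the 259, so the comparison is not independent of the branches. For 213 of the 756 only 1-B and 1-C3 had signal well above background among the 4 clones. Each of the 11 other ES and iPS arrays was nearer to the mean of 1-B and 1-C3 than to that of 1-A3 and 1-D6 for 75% to 91.1% of the 756 probes (median 87.0%) and for 76.8% to 90.7% of the 259 (median 87.6%), against 61.6% to 69.0% of all compared probes. MEFs were nearer to 1-B and 1-C3 for 41.1% of the 756, 39.0% of the 259 and 43.6% of all compared probes. The median level of the 756 probes was -1.21 in B6ES and -1.28 in TT2, -2.26 in 1-B, -2.43 in 1-C3, -3.77 in MEFs, -4.78 in 1-D6 and -5.25 in 1-A3. Both ES lines were above both 1-B and 1-C3 for 415 of them (54.9%, against 32.0% of all compared probes). For the 259 probes the medians were -2.87 in 1-A3 and -3.21 in 1-D6, near MEFs at -3.29, and -5.27 in 1-B and -4.99 in 1-C3, near ES lines at -5.82 and -5.53. By these medians the branch of 1-A3 and 1-D6 was the one that stood away from the other stem cell lines. Single genes could differ. In 2-N Gbp2 was at -3.85 and Fgf5 at -4.85, the latter under that array's lowest signal well above background (-4.83). Both values were below 1-A3 and 1-D6, while the other iHAC2-iPS lines were above these 2 clones.

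For many of these probes 1-A3 and 1-D6 lay beyond every line outside the iHAC1-iPS clones, fibroblasts included. The probes were chosen for low or high values in these 2 clones, so the counts are a description. Of the 756 probes, 355 had a value on all 16 arrays and signal well above background in both 1-A3 and 1-D6, and for 175 of these both clones lay below all 12 other arrays. Krt8, Krt18, Mycn, Dusp6, Irf1 and Phlda2 were among them. Of the 259 probes, 213 met the same conditions, and for 93 both clones lay above all 12, among them Akr1c18, Ntrk2, Ptpro, Tfap2d and Postn. Of all compared probes, 24139 met these conditions. Both clones lay below all 12 arrays for 1431 of them and above all 12 for 2570, so lying above was the more common.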

How the data were processed

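Total RNA of 16 mouse lines was labelled with Cy3 and hybridised to Agilent whole mouse genome arrays, 1 array a line. The authors scanned and extracted the arrays with Feature Extraction (10.7.1.1 and 10.7.3.1, per the labels) and deposited a processed signal intensity per spot, already background-subtracted, and a table of log2 values normalised in GeneSpring GX. The deposited table followed the values used here with slopes of 0.999 to 1.001. Intensities of non-control spots were averaged per probe without spots marked as outliers, taken to log2 and set relative to the 75th percentile of the array, with no pseudocount. Coordinates of probes are mm9 as in the files. Of 28026 probes with a RefSeq accession 26682 were matched to a symbol of the RefSeq table, and Nanog and Lif were named from the probe description. A gene took the probe with the highest mean level over the arrays.

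Members, branches and the 29 gene lists (461 genes) were chosen with earlier results of these data known. Named were, in each direction, the 12 genes with the widest gap between branch means among those measured on all 4 clones, the 6 with the highest bound, the pluripotency markers, reprogramming factors and sex-linked genes, and every listed gene at least 2-fold apart. Other genes named with values are members of the lists, chosen after their values were seen. Branches were not tested, since they were defined on these arrays, and errors are SDs of 2 clones. The number of clones limits the precision. The counting of separated probes, a computing step and no test of the branches, was tested on simulated data with known differences. Tools were Python 3.11.15, numpy 2.4.6, pandas 2.3.3, scipy 1.17.1, R 4.3.3 and limma 3.58.1, the last for normexp (offset 50). The alternatives were normexp, quantile normalization (computed in Python), the array median, the deposited table, other filters, 1 slide and leaving out each clone. Genes without a matched probe were not analysed here. Some genes are not reported here.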

Additional observations from a re-analysis of the deposited data

Results flagged for a closer look

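In 144 groups of 4 samples that were examined, 4 held a sample far from the other 3. Most groups were named genes, many of them chosen because 2 clones lay apart from the other 2. Such a choice leaves little room for a single outlying sample, so no chance rate is set beside the count. Klf4 was at 2.90 in 1-D6 and at 2.09 to 2.15 in the other iHAC1-iPS clones. The median log2 difference of the DNA methylation enzymes from the ES mean was 0.074 in 1-B and -0.32 to -0.29 in the others. For the Dlk1-Dio3 imprinted cluster it was 0.20 in 1-D6 and -1.04 to -0.91 in the others. Among the iHAC2-iPS lines, 2-N was nearer to 1-B and 1-C3 for 75% of the probes higher in those clones, and the other 3 lines were for 88.8% to 91.1%.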

How the results depend on the processing

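No paired analysis was possible because the replicate numbers of the clones follow accession order and no test was run. The cause of each shift below was not tested, except where fewer clones or fewer probes enter by construction. Probes without overlap, 6434 higher in 1-A3 and 1-D6 and 6362 in 1-B and 1-C3, became 3434 and 3687 with 1 probe per gene, 9825 to 10811 and 9625 to 10417 when a clone was left out, and 10811 and 9964 within the slide of 1-A3, 1-B and 1-C3. Probes at least 2-fold apart, 259 and 756, became 56 and 213 with normexp, 128 and 356 with signal well above background asked on all 4 clones, and 159 with 1 probe per gene for the first. They became 677 to 1278 and 1122 to 1477 when a clone was left out, and 1278 and 1181 within the slide, so that the share higher in 1-A3 and 1-D6 went from 25.5% to 52.0%. The ratio of distances, 1.48, was 1.26 over all detected probes, 2.26 with 1 minus the Pearson correlation and 1.85 with normexp. The median share of probes on which other lines lay nearer to 1-B and 1-C3, 87.6% and 87.0%, was 75.9% and 71.1% with no minimum gap. Of list medians, the epithelial one was -1.07 with normexp and -3.12 to -2.23 when a clone was left out, the pluripotency one -0.59 with normexp, the fibroblast one 0.36 to 0.85 and the Hox one 0.30 to 0.85 when a clone was left out. Small medians changed sign. When a clone was left out, the endoderm median (0.06) ranged from -0.29 to 0.40, Dlk1-Dio3 (0.54) from -0.059 to 0.74, the two-cell-stage gene (-0.46) from -1.41 to 0.48, BMP (0.21) from -0.0085 to 0.39, Wnt (-0.34) from -0.58 to 0.033, and integrins (-0.28) from -0.56 to 0.10. Values without 1-D6 were also those within the slide and set the -0.29, the -0.059 and the 0.48. Without 1-B the BMP and integrin medians, and without 1-C3 the Wnt median, took the other sign. With normexp the two-cell-stage gene was at 0.010. Of 1110 recomputed gene differences 1049 stayed within the spread between clones of a branch and 61 moved further. With a clone left out, or within the slide, all 111 genes stayed in each setting. That was fixed in advance, because dropping a clone cannot move a difference beyond this spread, so it shows no stability. With normexp 60 genes moved further and 51 stayed. Sign changed for 13 differences, all in the 6 genes Khdc3, Dppa3, Tcl1, Gbx2, Xist and Uty, whose branches overlap. Signal over background limits the dim genes, which have bounds only.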
